A study of Homo sapiens with 6 samples.

Results

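The genes described here encode the heat shock chaperones of the cytosol and of mitochondria, their J protein partners and 2 heat shock transcription factors. Members were chosen by gene symbol, with earlier results of these data known. They were the DNAJA, DNAJB and DNAJC families, the HSPA genes that carry a number, the cytosolic HSP90 genes and the numbered HSPB genes. The subunits of the TRiC chaperonin and HSPD1, HSPE1, HSPH1, HSF1 and HSF2 were also taken, leaving out the ER stress genes HSPA5 and DNAJB9. The symbols gave 76 of the 19923 protein-coding genes in the count tables. The symbols also took in 10 members of the endoplasmic reticulum (ER), J proteins and the HSP70 protein HSPA13, which are described apart.

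RNA was sequenced from Kelly, an established human neuroblastoma line with amplified MYCN whose genotype is labelled WT. Cells were transfected with a control siRNA (siControl) or with siRNA against METTL3 (siMETTL3), the enzyme that writes N6-methyladenosine on mRNA, with lipofectamine RNAiMax in 6-well plates, and were collected after 72 h. Each group held 3 libraries made from poly(A) RNA. The file headers give the same siRNA designation for all 3 siMETTL3 libraries, and the labels do not say whether replicates were separate cultures, so p-values measure the spread between these samples, which may be technical.

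The libraries held between 15430000 and 21565013 counts. METTL3 itself, at chr14:21498133-21511342, lay at 53.5, 52.8 and 56.2 CPM (a count divided by its TMM-scaled library size) in siControl and at 32.99, 31.8 and 34.3 CPM in siMETTL3, which is 61.0% of control (log2 fold change -0.71, SE 0.070, edgeR adjusted p = 4.68e-06). Markers of noradrenergic neuroblastoma were read in all 6 libraries, with none of the 8 at 0, and summed to 4964 to 5484 CPM in siControl and 7417 to 7843 CPM in siMETTL3. The 7 mesenchymal markers summed to 34.8 to 37.4 CPM and 58.0 to 63.7 CPM, the 3 Schwann cell markers in the table to 2.59 to 3.43 CPM and 3.99 to 5.51 CPM, and the 5 leukocyte markers to 2.06 to 2.87 CPM and 1.80 to 2.19 CPM. No listed marker was at 0 in all libraries. The neuroblastoma, mesenchymal and Schwann cell sums were thus higher in siMETTL3, without overlap between groups, and their part in the results below was not tested. Members of a list did not all move alike: MYCN, the largest part of the neuroblastoma sum, rose from 3021 ± 134 to 4638 ± 169 CPM (SD, n = 3; edgeR adjusted p = 5.17e-06), while ISL1 fell to 44.02% of control (edgeR adjusted p = 6.06e-08) and PHOX2A was not called. Most of the mesenchymal sum was VIM, which rose from 27.3 ± 0.804 to 48.8 ± 3.09 CPM (SD, n = 3; edgeR adjusted p = 2.69e-06), and COL3A1 lay at 64.2% of control (edgeR adjusted p = 0.0629). In bulk RNA, fewer cells of a kind and less RNA per cell cannot be told apart.

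Chaperones help proteins reach and keep their folded shape. HSP70 proteins bind short unfolded stretches and are loaded by J proteins, which stimulate their ATPase; HSP110 proteins and other exchange factors release the nucleotide. HSP90 receives partly folded clients such as kinases and hormone receptors from HSP70, and the TRiC chaperonin closes around actin, tubulin and other proteins and folds them inside its chamber. Mitochondria have their own HSP70 (HSPA9) and their own chaperonin made of HSPD1 and HSPE1. On stress, the transcription factor HSF1 forms trimers that bind inverted repeats of GAA and TTC in promoters, called heat shock elements.

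Promoter sequence is shown first, because the heat shock element, the site of HSF1, can be looked for in it. RefSeq promoter windows on GRCh38.p14, taken here as the 250 bases before each annotated start, were found for 67 of the 76 members (88 windows). A heat shock element of 3 units was searched as GAANNTTCNNGAA or TTCNNGAANNTTC, where N is any base; the forms are each other's reverse complement, so both strands were covered. It was present in 6 of the 88 member windows (6.82%), against 0.441% of the 35116 windows of all genes. The 6 genes were HSPA8, HSP90AA1, HSP90AB1, HSPD1, DNAJB6 and HSPA6. Stretches of 30 bases around these elements follow, 5′ to 3′ on the strand of the gene, with the element in capitals. HSPA8 and HSP90AB1 each held 2 separate elements, and the 2 elements of HSPD1 overlap. All the 3-unit elements shown but that of HSPA6 lie before a start inside the counted span of their own gene. The counted span of HSP90AB1, for one, begins at chr6:44246166. Other HSP90AB1 windows, at chr6:44245944-44246193 and chr6:44246851-44247100, held no element.
HSPA8, chr11:123062346-123062375, minus strand: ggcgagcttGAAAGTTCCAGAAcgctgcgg
HSPA8, chr11:123062171-123062200, minus strand: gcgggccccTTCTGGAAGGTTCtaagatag
HSP90AA1, chr14:102087112-102087141, minus strand: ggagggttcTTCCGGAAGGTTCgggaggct
HSP90AB1, chr6:44247769-44247798, plus strand: gggagcaggTTCTGGAAGATTCatgggctc
HSP90AB1, chr6:44247822-44247851, plus strand: ctgagattgTTCTGGAAGCTTCtggattct
HSPD1, chr2:197500061-197500090, minus strand: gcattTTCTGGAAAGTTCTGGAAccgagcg
DNAJB6, chr7:157336864-157336893, plus strand: aagagccgaGAACCTTCGCGAAggtggggc
HSPA6, chr1:161524457-161524486, plus strand: gcggaaaggTTCGCGAAAGTTCgcggcggc

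The last base of the element lay 43 bases before the annotated start in the nearer HSPA8 match and 228 bases before it in HSPD1. The HSPD1 stretch also lies before the counted span of HSPE1, which begins on the plus strand at chr2:197500140. No HSPE1 window held the element. None of the 9 windows of 7 TRiC genes held the 3-unit element; CCT6A was not in the promoter table. The shorter form GAANNTTC, which is its own reverse complement and is contained in every 3-unit match, was present in 18.2% of member windows, in 22.2% of the 9 TRiC windows and in 5.78% of all windows. The TRiC genes that held it were TCP1 and CCT2, although another CCT2 window, at chr12:69585209-69585458, did not. The matches are shown here with the 8 bases in capitals.
TCP1, chr6:159789815-159789844, minus strand: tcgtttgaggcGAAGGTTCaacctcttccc
CCT2, chr12:69585789-69585818, plus strand: cccggagcgaaGAAATTTCtagtgtgggac

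For a longer view, the whole 250-base windows of an element-bearing gene, HSP90AA1 (element in capitals), and of a TRiC gene with neither form, CCT4, are printed. The E-box CACGTG, a palindrome that MYC family proteins bind, was present in 9.09% of member windows, in 6.34% of all windows and in 0 of the 9 TRiC windows. These matches describe letters in a window, and binding was not measured.
HSP90AA1, chr14:102087045-102087294, minus strand: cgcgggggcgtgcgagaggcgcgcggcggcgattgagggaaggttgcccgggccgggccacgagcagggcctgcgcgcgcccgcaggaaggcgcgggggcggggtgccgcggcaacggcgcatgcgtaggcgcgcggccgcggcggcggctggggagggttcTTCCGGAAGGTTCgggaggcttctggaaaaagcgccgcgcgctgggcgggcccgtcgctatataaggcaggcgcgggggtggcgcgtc
CCT4, chr2:61888672-61888921, minus strand: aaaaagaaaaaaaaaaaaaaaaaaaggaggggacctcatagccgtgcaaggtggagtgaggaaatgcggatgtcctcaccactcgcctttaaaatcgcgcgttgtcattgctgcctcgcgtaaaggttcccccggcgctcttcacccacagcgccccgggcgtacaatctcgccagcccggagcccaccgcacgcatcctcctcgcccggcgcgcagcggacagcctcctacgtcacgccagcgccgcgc

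Across the list, TRiC, HSPA8, HSP90AA1 and HSPA9 fell, and 8 genes, all of them J proteins or small HSPs, rose. Of the 76 members, 70 had enough counts to be tested and 28 passed an edgeR adjusted p under 0.05 (40%, against 37.8% of the 15311 genes tested). Among them 8 were higher in siMETTL3 (11.4%, against 18.6% of all genes) and 20 were lower (28.6%, against 19.2%). The share called was near that of all genes. TRiC subunits made up 8 of the 20 lower members. The median log2 fold change was -0.077 over the tested members and -0.0021 over all genes; 46 members had a value below 0, against 50.3% of all genes. The median was -0.13 without siControl replicate 1 and -0.14 over the 44 members that overlap no other gene. In 37 members the groups did not overlap (52.9%, against 49.9% of all genes), with siMETTL3 below in 26 and above in 11.

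Most changes were small. The median absolute log2 fold change of the called members was 0.34, against 0.39 for all called genes, and 3 members, DNAJB8, HSPB7 and DNAJC22, changed at least 2-fold. The 76 members together held 9017, 9546 and 9742 CPM in siControl and 7981, 8044 and 8210 CPM in siMETTL3, or 85.6% of control. The groups did not overlap in this sum. Abundant genes weigh most in it: the TRiC mean went from 2673 to 2005 CPM and that of cytosolic HSP70 from 1190 to 927 CPM. The sums of small heat shock proteins, class B J proteins and vesicle J proteins lay at 112%, 101% and 106% of control.

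**Figure D1:**
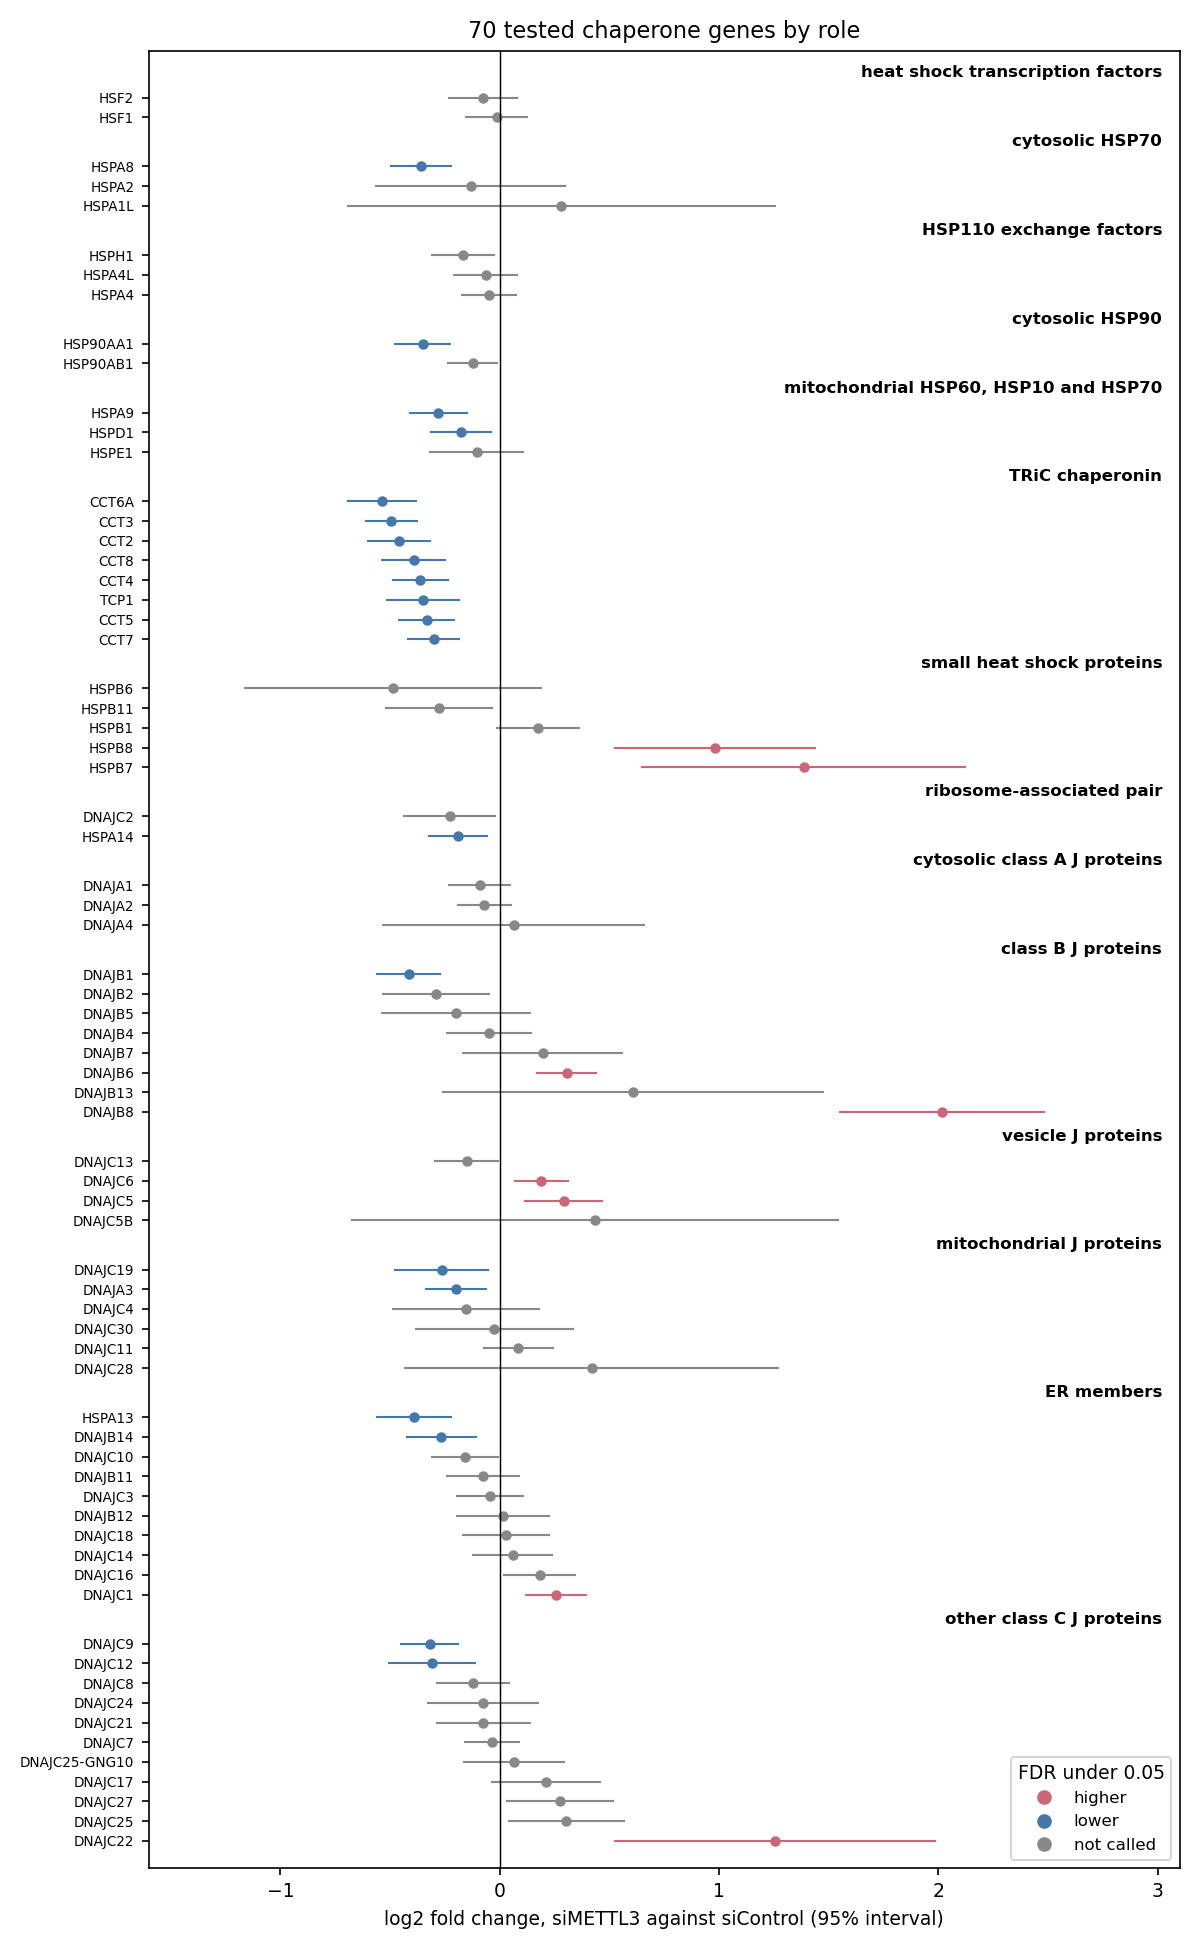
Log2 fold change of siMETTL3 against siControl for the 70 tested chaperone genes, grouped by role; points are edgeR estimates, lines are 95% intervals, red and blue mark genes higher and lower at an adjusted p under 0.05, grey marks genes not called. All 8 TRiC subunits lie left of 0, between -0.54 and -0.30, and the largest rise is that of DNAJB8 at 2.02.

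The heat shock factors did not pass the test. HSF1, which drives the heat shock response, lay at 81.6, 79.3 and 71.9 CPM in siControl and 74.8, 80.0 and 76.1 CPM in siMETTL3. The groups overlapped (log2 fold change -0.014, 95% interval -0.15 to 0.13, edgeR adjusted p = 0.888). A further fit, added after the data were seen, took out each library's trend on the GC share and length of transcripts. That trend includes any difference between groups that follows them, so technical and treatment parts were not separated. In this fit, called corrected for GC and length below, HSF1 was lower (-0.15, edgeR adjusted p = 0.0249). Its gene span overlaps that of DGAT1. HSF2, a related factor active in development, lay at 44.9, 46.6 and 49.0 CPM in siControl and 44.03, 42.1 and 46.9 CPM in siMETTL3, also with overlap (-0.076, 95% interval -0.23 to 0.077, edgeR adjusted p = 0.435).

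HSPA8, the constitutive cytosolic HSP70, fell. It lay at 1091, 1208 and 1256 CPM in siControl and at 894, 918 and 956 CPM in siMETTL3, so that every siMETTL3 library was below every control. This was 77.9% of control (log2 fold change -0.36, SE 0.064, edgeR adjusted p = 0.000597), and it rests on 18403 to 24143 counts per library. The other cytosolic HSP70 genes were scarce: HSPA2, a testis-enriched form, ranged from 3.12 to 4.51 CPM over the 6 libraries and HSPA1L from 0.266 to 0.835 CPM, and neither passed. HSPA6, a strictly stress-induced HSP70, had 3 to 12 counts per library and was not tested. HSPA1A and HSPA1B, the stress-inducible pair whose symbols fall outside the rule, are near-identical copies, so their separate values are uncertain; HSPA1B fell from 59.1 ± 3.20 to 51.3 ± 0.134 CPM (SD, n = 3; log2 fold change -0.20, edgeR adjusted p = 0.0230) and HSPA1A lay at 5.13 ± 1.24 and 4.63 ± 1.14 CPM (adjusted p = 0.604).

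The HSP110 exchange factors lay close to control. HSPH1, the inducible one, had 146, 160 and 174 CPM in siControl and 140, 141 and 146 CPM in siMETTL3; its siMETTL3 libraries all lay below the controls, the nearest by under 1 CPM. It missed the threshold (log2 fold change -0.17, 95% interval -0.31 to -0.026, edgeR adjusted p = 0.0601) and passed with the replicate number as a block (edgeR adjusted p = 0.0345) and without siControl replicate 1 (edgeR adjusted p = 0.00436). HSPH1 also passed in the fit corrected for GC and length, without and with the block (edgeR adjusted p = 0.0439 and 0.0398). The same held without the low-count filter (edgeR adjusted p = 0.0476) and among genes that overlap no other (edgeR adjusted p = 0.0428). In the other alternatives it was not called. HSPA4 ranged from 143 to 160 CPM and HSPA4L from 49.4 to 54.7 CPM over the 6 libraries, with overlapping groups.

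The cytosolic HSP90 genes differed in size of change. HSP90AA1, the stress-responsive form, lay at 569, 624 and 612 CPM in siControl and 464, 465 and 486 CPM in siMETTL3, with no overlap. It fell to 78.3% of control (log2 fold change -0.35, SE 0.057, edgeR adjusted p = 0.000333); reads where its span meets that of WDR20 were counted for both. HSP90AB1, the constitutive form, lay at 1096, 1098 and 1110 CPM in siControl and 1005, 1020 and 1007 CPM in siMETTL3. Its groups did not overlap either, but the change was smaller and missed the threshold (-0.12, 95% interval -0.24 to -0.010, edgeR adjusted p = 0.0804; DESeq2 adjusted p = 0.0456; edgeR without siControl replicate 3, adjusted p = 0.0327). HSP90AB1 also passed in the fit corrected for GC and length, without and with the block (edgeR adjusted p = 0.0198 and 0.0400). It passed too among genes that overlap no other (edgeR adjusted p = 0.0414), and was not called in the other alternatives. The difference between the changes of HSP90AA1 and HSP90AB1 was not tested.

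**Figure D2:**
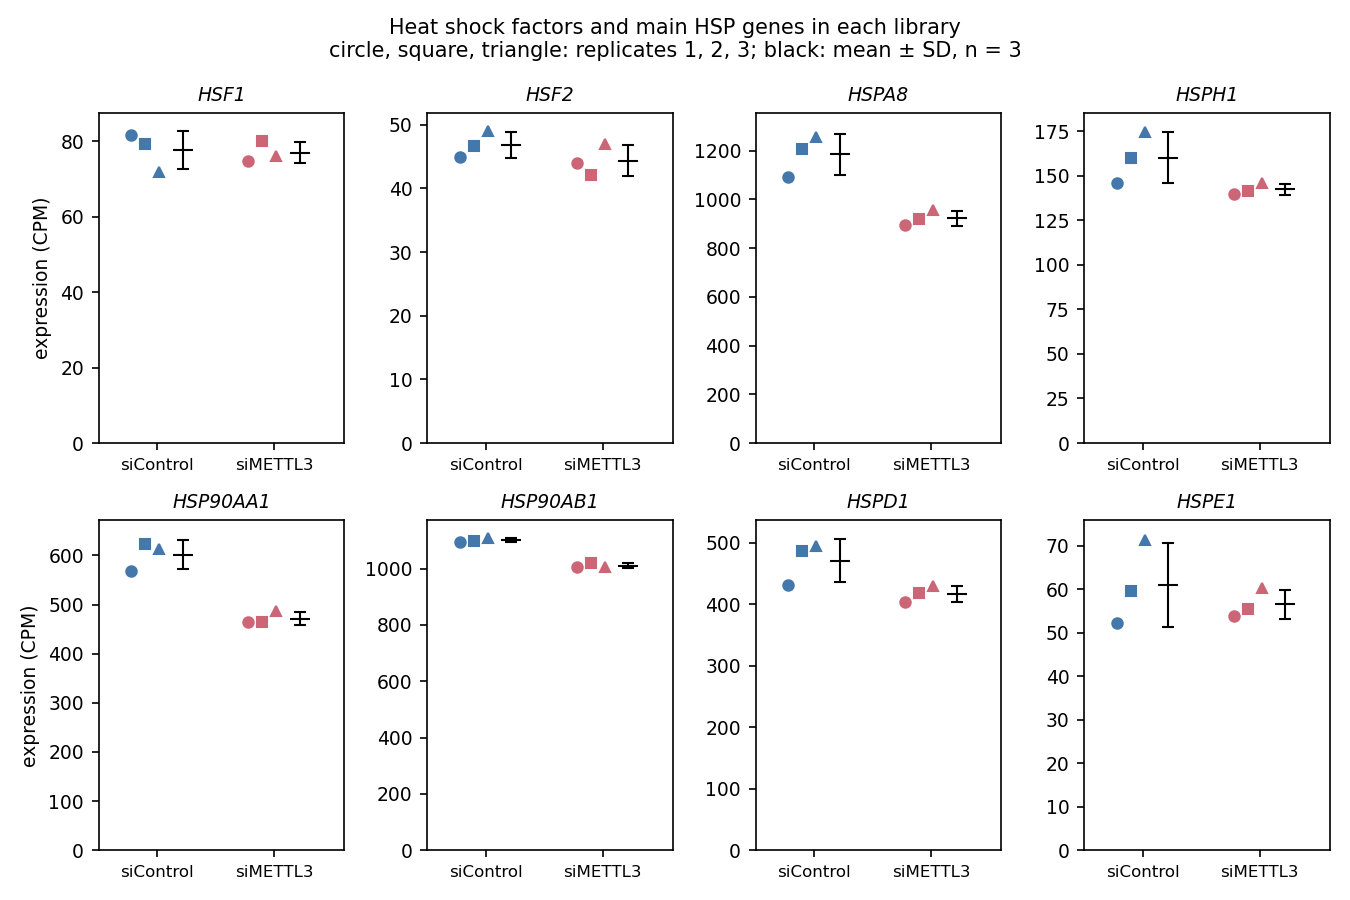
Expression in CPM of the heat shock factors and main HSP genes in each of the 6 libraries (circle, square and triangle are replicates 1, 2 and 3; black bars are mean ± SD, n = 3; each axis starts at 0). HSPA8 and HSP90AA1 are separated between groups, while HSF1, HSF2 and HSPE1 overlap.

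Among the mitochondrial folding proteins, HSPA9 and HSPD1 fell. HSPA9, the matrix HSP70 (mortalin), lay at 427, 442 and 471 CPM in siControl and 354, 360 and 389 CPM in siMETTL3, with no overlap (log2 fold change -0.28, SE 0.061, edgeR adjusted p = 0.00247). HSPD1, the mitochondrial HSP60, lay at 431, 486 and 495 CPM in siControl and 403, 418 and 429 CPM in siMETTL3. The lowest HSPD1 control lay just above the highest siMETTL3 library, and the call was close to the threshold (-0.18, SE 0.063, edgeR adjusted p = 0.0402); it was lost in the fit corrected for GC and length (-0.10, adjusted p = 0.0908), on scaling by upper quartile (adjusted p = 0.0639) or total counts (adjusted p = 0.0596), and without siControl replicate 2 or any of the siMETTL3 replicates (adjusted p 0.0769 to 0.176). HSPE1, its HSP10 lid, lay at 52.1, 59.7 and 71.2 CPM in siControl and 53.8, 55.5 and 60.2 CPM in siMETTL3, with overlap (-0.10, 95% interval -0.32 to 0.11, edgeR adjusted p = 0.437). In the fit corrected for GC and length HSPE1 was higher (0.21, edgeR adjusted p = 0.0130), and without siControl replicate 1 it was lower (-0.21, edgeR adjusted p = 0.0469). The HSPD1 and HSPE1 genes are neighbours on chromosome 2 on opposite strands with overlapping spans, and the counting used no strand.

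All 8 subunits of TRiC among the members fell; the complex folds actin and tubulin. The summed level was 2488, 2747 and 2785 CPM in siControl and 1985, 1976 and 2055 CPM in siMETTL3, or 75.0% of control. No subunit had a siMETTL3 library as high as any control, and all 8 passed (edgeR adjusted p 1.16e-05 to 0.00280). The share of genes called lower in the whole table was 19.2%, and 33.2% among the 2057 genes whose average log2 CPM was 7 or more, the range in which every TRiC gene lay. The median log2 fold change of the subunits was -0.38. They map to 7 chromosomes: CCT3 to chr1:156308968-156367873, CCT4 to chr2:61868085-61888671, CCT7 to chr2:73233420-73253021, CCT5 to chr5:10249929-10266389, TCP1 to chr6:159778498-159789703, CCT6A to chr7:56051685-56063989, CCT2 to chr12:69585426-69601570 and CCT8 to chr21:29055805-29073797.

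CCT6A, the zeta subunit, had the largest TRiC change: 378, 451 and 455 CPM in siControl against 286, 290 and 309 CPM in siMETTL3 (log2 fold change -0.54, SE 0.072, edgeR adjusted p = 6.82e-05). CCT3, the gamma subunit, was the most tightly measured, at 572, 587 and 609 CPM against 420, 415 and 419 CPM (-0.50, SE 0.054, adjusted p = 1.16e-05). In both, the fall was several times the SD of either group. CCT2, the beta subunit, lay at 227, 242 and 261 CPM against 171, 170 and 189 CPM, or 72.7% of control (-0.46).

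The other subunits changed less. CCT8, the theta subunit, lay at 158, 186 and 179 CPM in siControl and 128, 133 and 137 CPM in siMETTL3 (log2 fold change -0.39). CCT4, the delta subunit, lay at 241, 270 and 261 CPM and at 198, 195 and 207 CPM (-0.36). TCP1, the alpha subunit, lay at 253, 295 and 321 CPM and at 231, 221 and 230 CPM, with controls more spread than those of CCT8 or CCT4 (-0.35, SE 0.076, edgeR adjusted p = 0.00280). CCT5, the epsilon subunit, lay at 318, 351 and 352 CPM and at 264, 266 and 279 CPM (-0.33). CCT7, the eta subunit, lay at 340, 366 and 347 CPM and at 286, 286 and 284 CPM, which is 81.2% of control and the smallest change of the complex (-0.30).

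Replicate 1 of siControl was the lowest control for all 8 subunits. Its median log2 difference from the siControl mean over the complex was -0.095, against 0.053 and 0.049 in the other controls and -0.41, -0.39 and -0.33 in the siMETTL3 libraries. Leaving out any library kept all 8 calls. CCT3 and TCP1 share part of their span with TSACC and ACAT2, and the 6 subunits that overlap no other gene all passed when only such genes were tested.

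**Figure D3:**
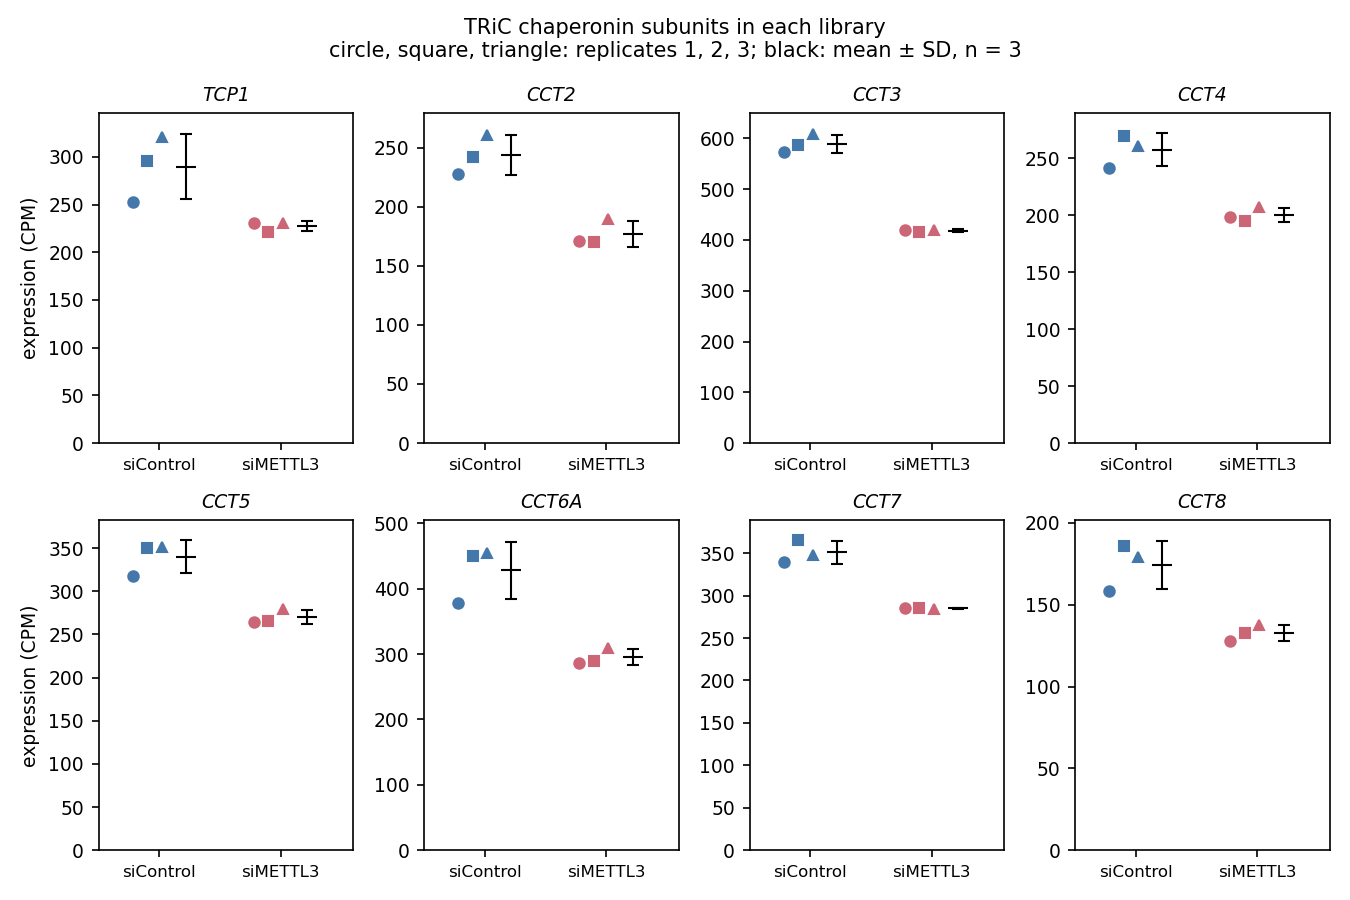
Expression in CPM of the 8 TRiC subunit genes in each library (symbols are replicates 1, 2 and 3; black bars are mean ± SD, n = 3; each axis starts at 0). In every panel the 3 siMETTL3 libraries lie below the 3 siControl libraries.

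Small heat shock proteins hold unfolding proteins without using ATP. Of 8 genes, 5 were tested, 2 rose and 3 were not called. HSPB8, a partner of BAG3 in selective autophagy, lay at 2.55, 2.70 and 1.99 CPM in siControl and 4.52, 5.83 and 4.09 CPM in siMETTL3 (log2 fold change 0.98, SE 0.21, edgeR adjusted p = 0.00248). HSPB7, known from heart muscle, lay at 1.48, 1.101 and 0.398 CPM and at 2.43, 2.57 and 3.17 CPM (1.38, SE 0.34, adjusted p = 0.00601), from 6 to 65 counts per library, and its span is shared in part with another gene. The groups did not overlap in either gene. HSPB1 (HSP27), a stress-induced member, lay at 84.0, 91.3 and 101 CPM and at 101, 117 and 93.7 CPM, with overlap (0.18, 95% interval -0.011 to 0.36, adjusted p = 0.129). HSPB11, also a part of intraflagellar transport, lay at 12.5, 12.96 and 11.3 CPM and at 9.91, 10.1 and 10.4 CPM, without overlap (-0.28, adjusted p = 0.0694). HSPB6 ranged from 1.01 to 2.39 CPM and was not called. HSPB9 had 4 to 8 counts per library, and HSPB2 and HSPB3 had 0 counts in all 6.

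The J proteins, which choose clients for HSP70, moved in both directions. DNAJB1, the main cytosolic HSP40 and an HSF1 target, lay at 66.7, 71.6 and 66.1 CPM in siControl and 53.2, 51.7 and 48.4 CPM in siMETTL3. It fell to 75.0% of control with no overlap (log2 fold change -0.42, SE 0.066, edgeR adjusted p = 0.000278); its span overlaps that of TECR. The class A members that serve HSPA8 were not called: DNAJA1 ranged from 184 to 219 CPM, DNAJA2 from 85.6 to 94.4 CPM and DNAJA4 from 1.72 to 3.65 CPM.

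DNAJB6 and DNAJB8, closely related class B proteins that suppress aggregation of polyglutamine proteins, rose. DNAJB6 lay at 94.1, 89.5 and 85.4 CPM in siControl and 115, 113 and 104 CPM in siMETTL3 (log2 fold change 0.30, SE 0.063, edgeR adjusted p = 0.00177). DNAJB8 lay at 1.39, 1.101 and 1.46 CPM and at 5.39, 5.83 and 4.72 CPM, a rise to 405% of control (2.02, SE 0.22, adjusted p = 1.05e-05), from 22 to 30 counts per library to 97 to 127. Groups did not overlap in either gene. The other 5 class B members tested outside the ER, DNAJB2, DNAJB4, DNAJB5, DNAJB7 and DNAJB13, were not called; DNAJB2 was the nearest, with 25.6, 19.2 and 21.2 CPM against 17.6, 19.1 and 17.4 CPM (-0.29, adjusted p = 0.0551).

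The J proteins of vesicles included 2 that rose. DNAJC5 (cysteine string protein), which protects synaptic vesicle proteins, lay at 165, 132 and 134 CPM in siControl and 185, 176 and 167 CPM in siMETTL3 (log2 fold change 0.29, SE 0.081, edgeR adjusted p = 0.0127). In the fit corrected for GC and length the change was 0.078 (adjusted p = 0.325), and the call was also lost without siControl replicate 2 or siMETTL3 replicate 1 (adjusted p = 0.0747 and 0.0698). DNAJC6 (auxilin), the neuronal factor that uncoats clathrin vesicles, lay at 103, 103 and 108 CPM and at 124, 116 and 118 CPM (0.19, SE 0.056, adjusted p = 0.0168), and its call too was lost without either of those libraries (adjusted p = 0.0783 and 0.0968). DNAJC13, an endosomal protein, lay at 178, 188 and 210 CPM and at 174, 164 and 180 CPM, with overlap (adjusted p = 0.0948). DNAJC5B stayed under 1 CPM and DNAJC5G, with 0 to 3 counts per library, was not tested.

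**Figure D4:**
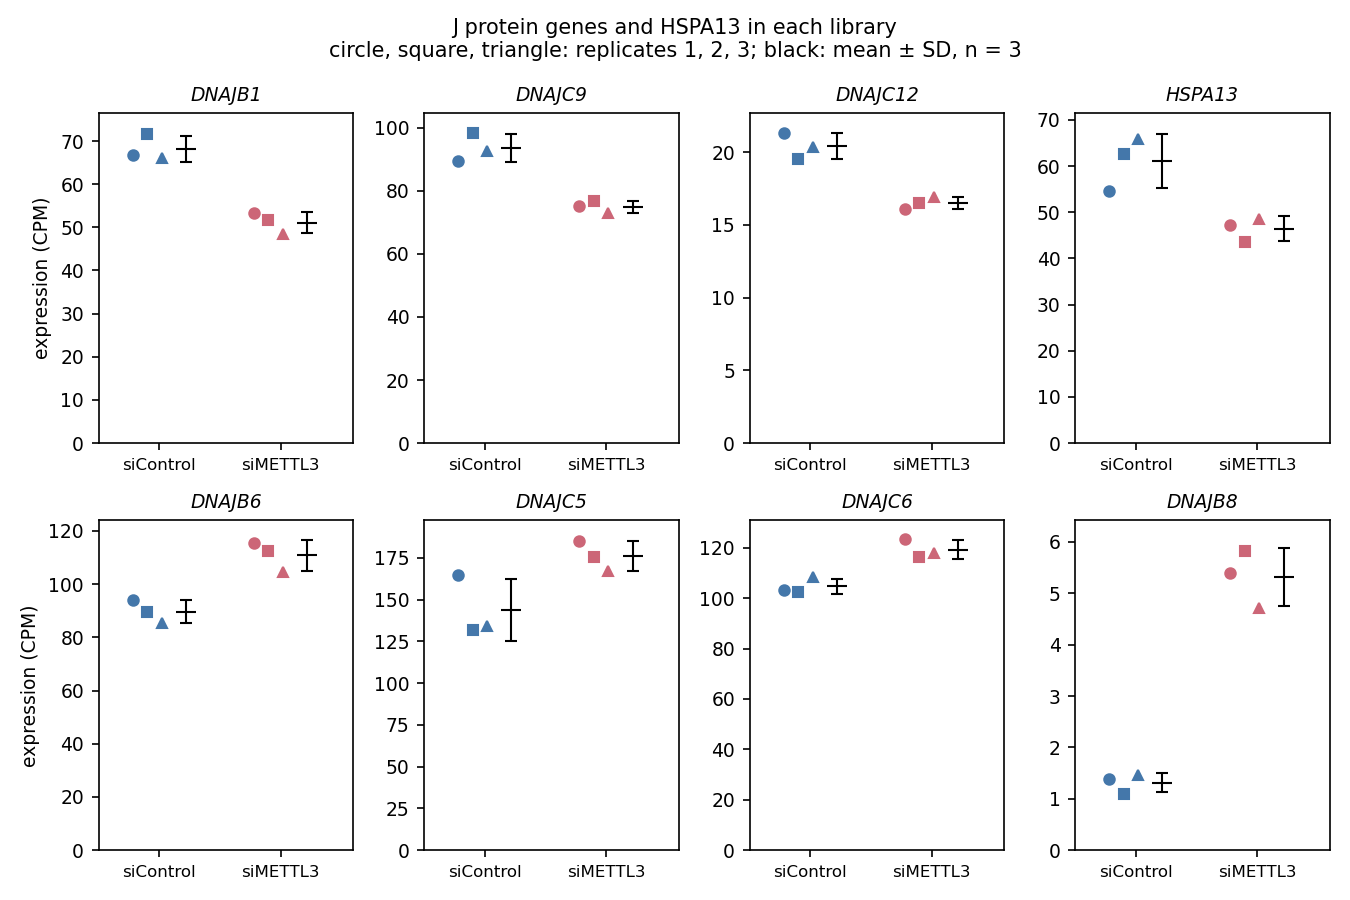
Expression in CPM of J protein genes and HSPA13 in each library (symbols are replicates 1, 2 and 3; black bars are mean ± SD, n = 3; each axis starts at 0). In the upper row siMETTL3 lies below siControl in all libraries, and in the lower row above it.

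In mitochondria, DNAJA3 (TID1), the J protein of HSPA9, and DNAJC19, part of the import motor, were lower with small margins. DNAJA3 lay at 93.0, 92.3 and 82.7 CPM in siControl and 78.8, 78.8 and 76.1 CPM in siMETTL3 (log2 fold change -0.20, edgeR adjusted p = 0.0228). DNAJC19 lay at 21.5, 25.1 and 24.9 CPM and at 19.8, 18.3 and 21.3 CPM (-0.27, adjusted p = 0.0470). Both calls were lost on scaling by total counts (adjusted p = 0.0513 and 0.0677), and that of DNAJC19 also with DESeq2 (adjusted p = 0.0735) and in the fit corrected for GC and length (adjusted p = 0.265). Leaving out siControl replicate 2 or any of the siMETTL3 replicates ended the DNAJA3 call (adjusted p 0.0573 to 0.105), and leaving out any library but siControl replicate 1 ended that of DNAJC19 (adjusted p 0.0509 to 0.178). Other settings made the DNAJA3 change larger: it ranged from -0.31 to -0.17 over all alternatives. Its smallest adjusted p over the edgeR, DESeq2 and limma alternatives was 0.000136. DNAJC4, DNAJC11, DNAJC28 and DNAJC30 were not called, and DNAJC15, with 1 to 8 counts per library, was not tested. The ribosome-associated pair, which meets the nascent chain, comprised HSPA14, at 58.8, 59.5 and 57.7 CPM against 50.0, 52.4 and 51.8 CPM (-0.19, edgeR adjusted p = 0.0251; 0.193 corrected for GC and length, 0.0503 with total counts), and DNAJC2, at 21.1, 22.7 and 25.0 CPM against 18.3, 19.5 and 20.8 CPM (-0.23, adjusted p = 0.0793). The HSPA14 call was also lost without siControl replicate 2 or any of the siMETTL3 replicates (adjusted p 0.0522 to 0.114).

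Of the 10 ER members, 2 fell, 1 rose and 7 were not called. HSPA13 (STCH), a microsomal HSP70, lay at 54.6, 62.7 and 65.8 CPM in siControl and 47.3, 43.5 and 48.6 CPM in siMETTL3 (log2 fold change -0.39, SE 0.079, edgeR adjusted p = 0.00161). DNAJB14, a membrane J protein, lay at 56.0, 54.8 and 60.9 CPM and at 49.7, 44.1 and 48.9 CPM (-0.27, adjusted p = 0.0103; 0.0676 corrected for GC and length, 0.0612 without siMETTL3 replicate 2). DNAJC1, an ER membrane J protein, lay at 55.5, 52.8 and 58.1 CPM and at 64.6, 67.5 and 66.3 CPM (0.26, SE 0.064, adjusted p = 0.00608). Groups did not overlap in these 3 genes.

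Of the remaining 11 class C members, 2 fell and 1 rose. DNAJC9, a J protein that also chaperones histones, lay at 89.5, 98.4 and 92.6 CPM in siControl and 75.2, 76.8 and 72.9 CPM in siMETTL3 (log2 fold change -0.32, SE 0.060, edgeR adjusted p = 0.00101), and overlaps FAM149B1. DNAJC12, the partner of aromatic amino acid hydroxylases such as tyrosine hydroxylase, lay at 21.3, 19.5 and 20.4 CPM and at 16.1, 16.5 and 16.9 CPM (-0.31, adjusted p = 0.0168; 0.191 corrected for GC and length, 0.0686 and 0.0508 without siMETTL3 replicates 1 and 2). DNAJC22 lay at 0.742, 0.801 and 0.531 CPM and at 1.90, 1.88 and 1.27 CPM (1.25, SE 0.34, adjusted p = 0.0101), from 8 to 41 counts per library. DNAJC25 and the read-through DNAJC25-GNG10 share exons and could not be told apart in part of their reads; neither was called.

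Within the list, the direction of the calls went with the read level, taken as log2 CPM without correction for gene length. Of the 11 tested members whose average log2 CPM was under 2, 4 rose and 7 were not called (13.1% of all genes in that range rose and 3.25% fell); the 4 were DNAJB8, HSPB7, DNAJC22 and HSPB8. Of the 19 with at least 7, 1 rose and 12 fell (20.9% and 33.2% of all genes in that range), and 18 had a log2 fold change below 0 (56.7% of all genes in that range). The whole table thus leaned the same way at each end.

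**Figure D5:**
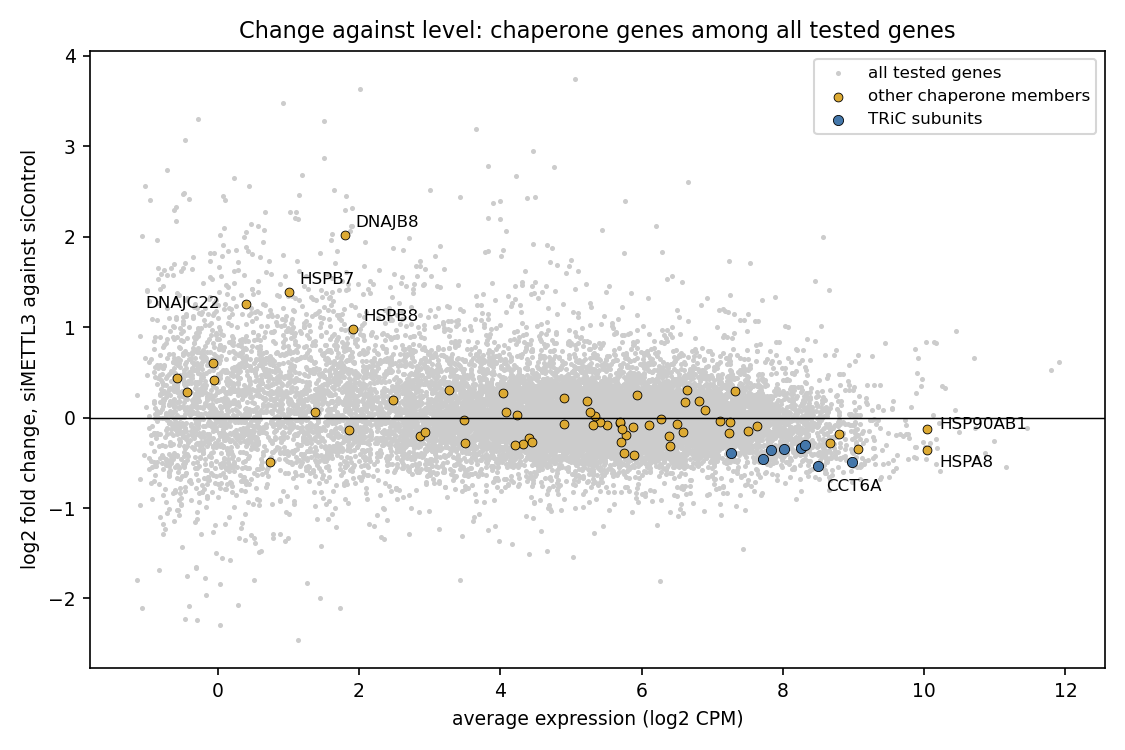
Log2 fold change of siMETTL3 against siControl plotted against average expression in log2 CPM for the 15311 tested genes (grey), the TRiC subunits (blue) and the other chaperone members (yellow). The TRiC genes lie at an average of at least 7 and below 0, and the members that changed at least 2-fold lie under 2.

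Partner genes came from lists set by name, with earlier results of these data known. They were counted in the same fit, in which 19.2% of all tested genes were lower and 18.6% higher. Of 30 co-chaperones of HSP70 and HSP90, 11 were lower and 2 higher, with a median log2 fold change of -0.072. SUGT1, which links HSP90 to its clients, fell from 113 ± 2.83 to 81.6 ± 1.77 CPM (SD, n = 3; log2 fold change -0.47, edgeR adjusted p = 2.84e-05). ST13, which stabilises the HSP70 and client complex, fell from 206 ± 2.11 to 163 ± 7.90 CPM (-0.34, adjusted p = 0.000375), and PTGES3 (p23), which holds HSP90 closed, from 95.9 ± 3.50 to 75.3 ± 4.38 CPM (-0.35, adjusted p = 0.000727). Against these, BAG3, the partner of HSPB8, rose from 27.1 ± 2.32 to 38.6 ± 0.714 CPM (0.51, adjusted p = 0.000298), and FKBP5, an HSP90 immunophilin, from 124 ± 7.11 to 146 ± 2.23 CPM (0.24, adjusted p = 0.00483). STIP1 (HOP), which bridges HSP70 and HSP90, was not called (0.055, adjusted p = 0.480).

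Of 17 prefoldin and TRiC helper genes tested, 5 were lower and 3 higher (median -0.047), against 19.2% and 18.6% of all genes. The 3 were URI1, a prefoldin-like subunit (0.27), and the tubulin cofactors TBCA (0.35) and TBCD (0.26), while the cofactors TBCB (-0.31) and TBCC (-0.37), the prefoldin subunit PFDN4 (-0.23), UXT (-0.28) and PDCL (-0.25) fell. Helpers that act before or after TRiC on tubulin thus moved in both directions. CCT6B, a further CCT gene outside the symbol rule that was counted in this list, was not called. It lay at 22.2 ± 2.00 CPM in siControl and 21.7 ± 2.87 CPM in siMETTL3 (SD, n = 3), with overlap (-0.032, edgeR adjusted p = 0.850). Of 19 genes of mitochondrial import and quality control, 7 were lower and 2 higher (median -0.095), against the same 19.2% and 18.6%. The higher ones were CLPB, a disaggregase of the intermembrane space that rose from 242 ± 15.4 to 376 ± 8.65 CPM (SD, n = 3; 0.64, edgeR adjusted p = 3.25e-06), and SPG7, an inner membrane protease (0.29); GRPEL2, an exchange factor of HSPA9, fell from 74.5 ± 4.32 to 53.7 ± 2.43 CPM (-0.47, adjusted p = 0.000117).

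Of 15 HSP genes outside the symbol rule, 3 were higher and 2 lower (median -0.12), against 18.6% and 19.2% of all genes. HSPA12A (0.66), HSPA12B (0.98) and SEC63 (0.47), an ER translocon J protein, rose, and HSPA1B (-0.20) was among those that fell. Of 5 ubiquitin and extraction partners, 4 were lower, against 19.2% of all genes, and VCP was not called. Those lower included the polyubiquitin gene UBB (-0.43), ZFAND2A (-0.40) and SQSTM1 (-0.21). UBB lay at 54.2 ± 3.33 CPM in siControl and 40.3 ± 2.43 CPM in siMETTL3 (SD, n = 3; edgeR adjusted p = 0.000545).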

How the data were processed

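Counts per gene were deposited by the authors for each of the 6 libraries. Per the file headers they were made with featureCounts against GENCODE v33 protein-coding genes, over the whole gene span. Reads that overlap several genes were counted for each, and 29 members overlap another gene. The headers give no strand option and no paired-end option. If reads were paired, mates may have been counted separately. Per the submitters' processing notes, FastQC 0.11.5, Trimmomatic 0.36, HISAT2 2.1.0 and Subread 1.5.3 were used on GRCh38. How reads from processed pseudogenes or close paralogs, which HSPA8, HSPD1, HSPE1 and the HSP90 genes have, were placed is not given in the sources used here.

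Here, all 15311 genes kept by filterByExpr were fitted with edgeR 4.0.16 (R 4.3.3, TMM, robust quasi-likelihood F-test, no covariate, all 6 libraries). Benjamini-Hochberg adjustment was made over them. The code was run on simulated counts in which far fewer genes changed than were called here. That run does not measure the error rate in these data. A gene is called at an adjusted p under 0.05. CPM are relative to TMM-scaled library sizes, and the SE is the log2 fold change over the root of F. DESeq2 1.42.0, limma 3.58.1 and other scalings, filters and left-out libraries were alternatives. Counts rest on reads, so low genes are less precise.

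The members and lists were chosen with earlier results of these data known. Named were METTL3, HSF1, HSF2, HSPA8, HSPA9, HSP90AA1, HSP90AB1, HSPH1, HSPD1, HSPE1, DNAJB1 and TCP1, up to 12 members per direction with the smallest adjusted p whose average log2 CPM was 2 or more, and members of role groups or counts of 5 or fewer; others of the lists were chosen after their values were seen. Promoters are from RefSeq (GRCh38.p14), transcript lengths and GC from GENCODE v44. Whether replicate numbers pair libraries was checked with the correlation of deviations from group means. It was 0.040, 0.049 and 0.067 for same numbers and -0.064 to 0.026 for different ones. Same numbers thus gave the higher values, all of them small. The labels give no pairing, so the main fit did not treat libraries as paired. A fit with the replicate number as a block was an alternative. The values of some partner genes are not reported here.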

Additional observations from a re-analysis of the deposited data

How the results depend on the processing

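METTL3 and all 8 TRiC subunits stayed lower under all 18 alternatives in which they were tested (6 subunits where overlapping genes were left out; METTL3, which overlaps TOX4, was kept there), and METTL3 ranged from -0.75 to -0.69. Leaving out 1 library gave 6 to 10 members higher, 14 to 26 lower, a member median of -0.13 (without siControl replicate 1) to -0.062, 9 to 12 partner genes higher and 19 (without siControl replicate 2) to 35 lower. Testing only genes that overlap no other gave a member median of -0.14 over 44 members and 18 partner genes lower of 49 tested; fewer genes were tested there. HSF1 turned to 0.0083 with total counts and ranged from -0.065 to 0.023 with 1 library left out, and HSPE1 from -0.21 to 0.016. Under the GC and length offset, chosen after seeing the data, HSF2 was 0.027 and HSPE1 0.21 (0.026 and 0.20 with the replicate block), 10 members were higher and 21 lower, 22 of the 28 calls were kept, and 41.0% of all calls were higher (49.2% without it); the cause was not tested. Over the replicate numbers as a block, 6166 genes were called (5786 without), 8 members higher and 21 lower, and all 28 member calls were kept; the labels give no pairing. All low-level calls rest on few counts: at least 10 counts in every library left 6 members higher.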

Other observations

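The spliced transcripts of the members differed in make-up along with their direction. Reads were counted over whole gene spans, and the length of those spans was not compared. Over the canonical GENCODE v44 transcripts, available for 69 of the 70 tested members, the 20 members that fell had a median GC content of 42.4%, 12 exons and a longest exon of 870.5 bases, and the 8 that rose had 52.0%, 4.5 exons and 1702 bases. The 8 TRiC transcripts had a median GC content of 42.8%, 14 exons, a longest exon of 494 bases and a length of 2164 bases, against 48.6%, 9 exons, 1712 bases and 3357 bases over all tested genes. In the whole table the genes that rose had a median GC content of 52.6% and those that fell 45.95%, and a median longest exon of 2130 and 1598 bases, the same direction as in the members. The exon number ran the other way there, with a median of 10 in genes that rose and 8 in those that fell. In the fit corrected for GC and length all 8 TRiC subunits were called lower. That fit does not separate technical from treatment parts, and the part of transcript make-up in the TRiC fall was not tested.

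GGACT, a common form of the consensus at which METTL3 methylates, occurred 0.53 times per kb in the median TRiC transcript. The median was 0.60 in the members that fell, 1.18 in those that rose and 0.68 in those not called. It was 0.695 over all tested members and 0.93 over all tested genes. In the whole table it was 0.99 in genes that rose and 0.86 in genes that fell. Methylation was not measured in these files, and a motif count does not show a methylated site.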
